A study of Homo sapiens with 9 samples.

Results

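Connexins and pannexins are the large-pore channel proteins of the cell membrane, and 4 of their genes, GJA1, GJB2, GJC1 and PANX1, were followed by name among the 58735 genes of an RNA sequencing table of H1299 cells, an established human lung cancer line. The 4 were chosen with earlier results of these data known, and GJB2 was selected on its FPKM, nearly silent in Vector and high in KO2. Its levels are therefore described and not tested. KO1 and KO2 are monoclonal lines, each grown from a single cell after CRISPR editing of BCKDK, the kinase that inhibits branched-chain ketoacid dehydrogenase. Vector cells, labelled wild type for BCKDK, had been transduced with the lentiCRISPR v2 plasmid and are not described as monoclonal, so BCKDK editing and single-cell cloning cannot be told apart in any comparison with Vector. Each of the 3 groups had 3 libraries, no drug treatment is given in the labels, and the labels do not say that libraries came from separate cultures, so the spread behind each p-value may be no more than technical.

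Connexin subunits assemble as hexamers, and hexamers of adjoining cells dock into gap junctions that pass ions and small metabolites between the cells. Some connexins, but not all pairs of them, can mix in 1 hexamer, and the mixture affects what the channel lets through. Pannexins have the same membrane topology but mostly act as single-membrane channels, and PANX1 is a release path for ATP. In lung, GJA1 is the widespread connexin of epithelium and mesenchyme, whereas GJB2 is typical of epithelia such as inner ear and skin.

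BCKDK transcript stood at 1.91, 2.06 and 1.67 FPKM in KO1, at 0.628, 0.576 and 0.287 FPKM in KO2 and at 13.7, 12.9 and 17.5 FPKM in Vector. FPKM corrects reads for exon length and for a scaling size of each library. Recovered depth was 16002212 to 17090445 reads per library. Vector replicate 3 and KO2 replicate 3 stood apart: the median gene differed by 0.247 and 0.233 on the log2 scale between KO2 replicate 3 and the other KO2 libraries, against 0.0892 between those, and Vector replicate 3 differed from its group by 0.32 and 0.299, against 0.13 between the remaining pair. The mesenchymal filament gene VIM averaged 591, 513 and 702 FPKM in KO1, KO2 and Vector. The epithelial markers CDH1 and EPCAM and the lung adenocarcinoma markers NKX2-1, NAPSA, SFTPB and SFTPC each averaged under 0.5 FPKM in every group, as did all 11 markers of immune cells, endothelium and fibroblasts.

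The connexin transcripts of Vector were mostly GJC1 with some GJA1. Both clones had almost no GJA1, and in KO2 GJB2 stood at the level of GJC1 by FPKM. Shares between genes rest on the annotated exon length by which FPKM is scaled. Over all 21 connexin genes the summed level was 15.0 ± 0.551 FPKM in KO1, 33.3 ± 1.37 FPKM in KO2 and 19.4 ± 0.755 FPKM in Vector (SD, n = 3 each). GJC1 made up 95.3% ± 0.85 of this sum in KO1, 44.8% ± 7.7 in KO2 and 80.5% ± 3.25 in Vector. GJB2 made up 0.271% ± 0.105 in KO1, 50.6% ± 8.53 in KO2 and 1.19% ± 0.423 in Vector. The share of GJA1 was 0.079% ± 0.0687 in KO1, 0.119% ± 0.13 in KO2 and 11.5% ± 0.794 in Vector.

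**Figure D1:**
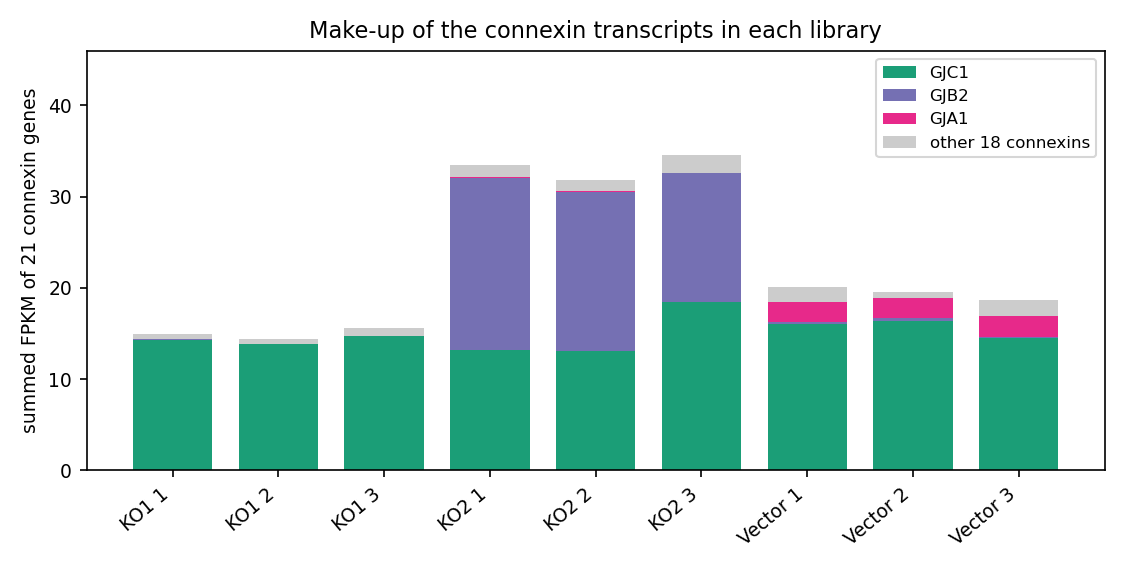
Stacked bars give the summed FPKM of the 21 connexin genes in each of the 9 libraries, divided into GJC1, GJB2, GJA1 and the other 18. GJC1 fills most of every KO1 and Vector bar, the GJB2 segment is large in the 3 KO2 libraries, and the GJA1 segment is visible in the 3 Vector libraries.

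Promoter sequences are shown for the members whose transcript was near 0 in some groups and present in others, since the promoter is where transcription of the gene starts. Of the 4 members, 3 were matched by symbol (GJA1, GJB2 and PANX1). The sequences are from RefSeq, build GRCh38.p14, 250 bases before to 50 after the RefSeq start, read on the strand of the gene. The GJB2 promoter (chr13:20192889-20193188, minus strand) had 33 CpG dinucleotides, more than 82.8% of the 35116 promoters of the same table, and 71.7% G or C. The GJA1 promoter (chr6:121435396-121435695, plus strand) had 3 CpG dinucleotides, more than 18.2% of them, and 47% G or C. Capitals mark matches on either strand to GGGCGG, the GC box bound by SP1-type factors, or to TGANTCA, the site of AP-1 factors.
GJB2: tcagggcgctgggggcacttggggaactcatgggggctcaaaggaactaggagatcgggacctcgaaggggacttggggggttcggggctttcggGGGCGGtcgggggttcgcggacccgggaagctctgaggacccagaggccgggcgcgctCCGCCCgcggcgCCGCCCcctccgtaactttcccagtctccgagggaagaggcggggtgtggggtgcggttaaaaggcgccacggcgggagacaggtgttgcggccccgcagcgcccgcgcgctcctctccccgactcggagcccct
GJA1: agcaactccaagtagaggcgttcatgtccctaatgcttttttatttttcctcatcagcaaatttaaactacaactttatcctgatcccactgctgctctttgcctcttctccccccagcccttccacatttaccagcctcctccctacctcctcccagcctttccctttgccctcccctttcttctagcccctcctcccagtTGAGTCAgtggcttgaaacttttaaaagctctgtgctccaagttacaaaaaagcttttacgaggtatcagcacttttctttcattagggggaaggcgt
The GJB2 window held 3 GC boxes, a motif present in 45% of all promoters of the table, and no AP-1 site. In contrast, the GJA1 window held 1 AP-1 site, present in 7.71% of all promoters, and no GC box. Neither window matched CACGTG, the E-box bound by MYC, which 7.26% of promoters hold, nor TATAAA, which 11.5% hold. A match is a description of the letters and not evidence of binding, and none of the matches overlaps another. Of the other members, PANX1 had 24 CpG dinucleotides and 1 GC box.

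GJA1 encodes the most widely expressed connexin (ENSG00000152661, chromosome 6, 121435577 to 121449727 of hg38, plus strand). Its level was 0, 0.018 and 0.0173 FPKM in KO1 replicates 1, 2 and 3. In KO2 it was 0.0332, 0.0817 and 0 FPKM, and in Vector 2.19, 2.18 and 2.3 FPKM. All 6 knockout libraries lay far below all 3 Vector libraries, and the clones overlapped each other. In reads, KO1 had 2 and Vector 387 over 3 libraries each, which is 187 times fewer per scaled library size with an exact 95% interval of 51.3 to 1550. KO2 had 7 reads, 56.2 times fewer than Vector with an interval of 27 to 141. These intervals cover counting error only.

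Changes are given as differences of log2(FPKM + 1), a scale that compresses those of low genes. On it GJA1 fell by 1.67 in KO1 (SE 0.11, limma adjusted p = 5.91e-06) and fell by 1.64 in KO2 (SE 0.11, limma adjusted p = 1.08e-05). These tests come from 1 limma fit of all 9 libraries and 16426 genes that averaged 0.5 FPKM or more, with Benjamini-Hochberg adjustment over all of them and calls at an adjusted p under 0.05. Both comparisons share the Vector libraries. KO2 minus KO1 was 0.04 for GJA1 (95% interval -0.2 to 0.27, limma adjusted p = 0.828). The mean of GJA1 over the 9 libraries was 0.758 FPKM, so it passed the filter through its Vector level alone, and GJB2, at 5.68 FPKM, through KO2 alone. Such a filter admits a gene near 0 in both clones only if Vector is high. In a fit with no filter both GJA1 calls were kept (limma adjusted p = 1.59e-05 for KO1 and 2.36e-05 for KO2). In bulk RNA, fewer cells with a transcript and less transcript per cell cannot be told apart. The processed copy GJA1P1 on chromosome 5, which resembles GJA1 in sequence, had 9 reads in KO1, 1 in KO2 and 3 in Vector.

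GJB2 encodes the connexin whose loss is a common cause of inherited deafness (ENSG00000165474, chromosome 13, 20187463 to 20193010, minus strand). It stood at 0.0492, 0.0483 and 0.0232 FPKM in KO1, at 18.9, 17.4 and 14.1 FPKM in KO2 and at 0.263, 0.302 and 0.134 FPKM in Vector. The 3 groups did not overlap, with KO1 lowest and KO2 highest, and KO2 replicate 3, a library that stood apart, was the lowest of its group. Over 3 libraries each, 2221 reads were found in KO2, against 5 in KO1 and 30 in Vector, a ratio of 421 to KO1 and of 72.9 to Vector after scaling. The log2(FPKM + 1) difference was 3.84 for KO2 minus Vector and 4.09 for KO2 minus KO1. This difference is what chose GJB2, so it carries no test. The summed level of 4 fibroblast markers also stood higher in KO2, at 0.622 to 0.814 FPKM, against 0.0426 to 0.114 FPKM in KO1 and 0.0936 to 0.138 FPKM in Vector, with 0 of the 4 at 0.5 FPKM or more in any group. Its part in the GJB2 result was not tested.

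In KO1 the log2(FPKM + 1) difference of GJB2 from Vector was -0.24, set against the same low Vector libraries by which GJB2 was chosen, so it too carries no test. By reads, 5 in KO1 stood against 30 in Vector, a ratio of 0.173 after scaling, given as a description only. With a pseudocount of 0.1 in place of 1 the difference read -1.21, and with limma-voom on the reads -2.19. GJB2 in KO1 lay at 1 or 2 reads per library, and the size of its difference changed with the scale used.

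GJC1, a connexin of smooth muscle, the conducting heart and many embryonic cells (ENSG00000182963, chromosome 17, 44798448 to 44830816, minus strand), had 14.3, 13.8 and 14.7 FPKM in KO1. It had 13.2, 13.1 and 18.5 FPKM in KO2 and 16, 16.4 and 14.5 FPKM in Vector. The groups overlapped in every comparison, and KO2 replicate 3 gave the highest of the 9 values. The log2 difference was -0.12 in KO1 (95% interval -0.42 to 0.18, limma adjusted p = 0.521) and -0.08 in KO2 (-0.38 to 0.22, limma adjusted p = 0.713), and KO2 minus KO1 was 0.05 (-0.25 to 0.35, limma adjusted p = 0.831). Without Vector replicate 3 and KO2 replicate 3 GJC1 passed the threshold in both clones. It read -0.17 for KO1 (limma adjusted p = 0.0157) and -0.28 for KO2 (limma adjusted p = 0.00359). In that fit 9335 genes were called in KO1 and 8138 in KO2, against 5609 and 4586 with all 9 libraries. Passing there is therefore not read as particular to GJC1.

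PANX1, the ATP release channel (ENSG00000110218, chromosome 11, 94128928 to 94181972, plus strand), measured 6.88, 7.37 and 7.44 FPKM in KO1. KO2 had 6.3, 6.23 and 7.83 FPKM, and Vector 8.12, 8.62 and 9.72 FPKM. Every knockout library lay below every Vector library, by a small margin, and the clones overlapped. PANX1 fell by 0.34 on the log2 scale in KO2 (SE 0.11, limma adjusted p = 0.0488), and the KO1 value of -0.25 missed the threshold (SE 0.11, limma adjusted p = 0.109). KO2 minus KO1 was -0.09 (95% interval -0.34 to 0.16, limma adjusted p = 0.602). The KO2 call held when KO2 replicate 3 was left out and was lost when any other single library was left out (highest adjusted p = 0.154, without KO2 replicate 2), while without both libraries that stood apart it read -0.37 (limma adjusted p = 0.00276). With GJB2 set aside, 1 of the 3 remaining members was called in KO1, where 34.1% of all fitted genes were called and 16.7% fell. In KO2 2 of the 3 were called, where 27.9% of all fitted genes were called and 15.0% fell. So few members, chosen with results known, say nothing against these shares. None of the 3 was called between the clones by limma, a comparison in which 30.9% of genes were called. There 0 of the 3 had an unadjusted p under 0.05, against 6899 of the 16426 fitted genes. Limma-voom called 0 of the 3, against 5501 of the same genes. These counts of 3 members are likewise too few to be read against those of all genes.

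**Figure D2:**
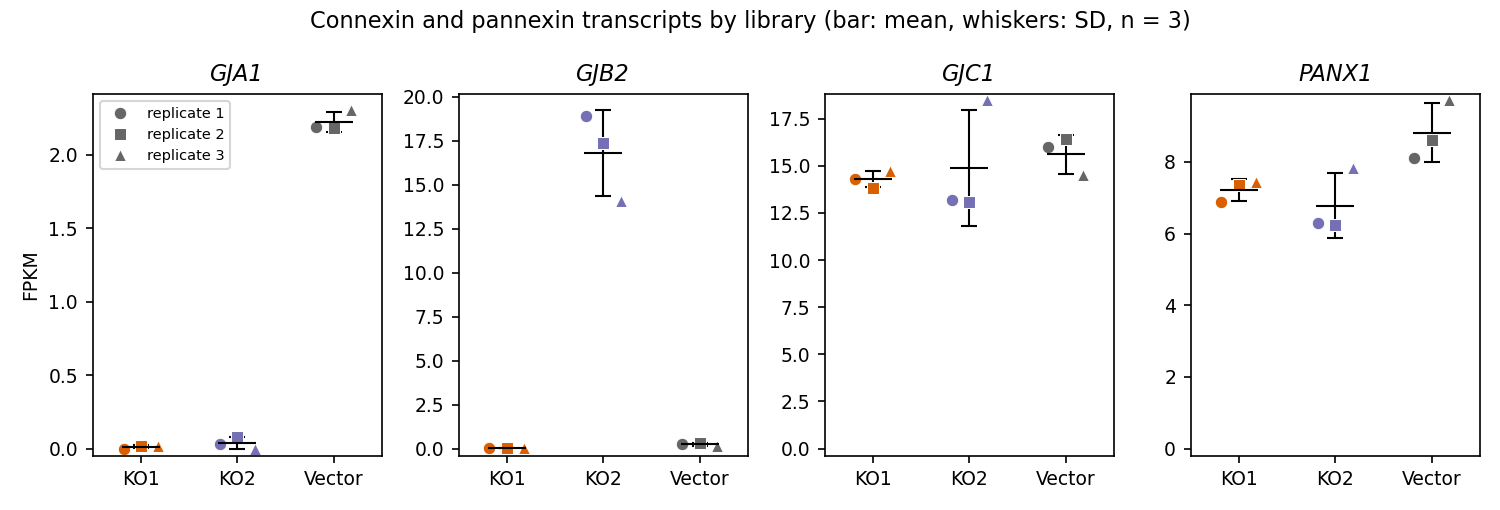
Points give FPKM of GJA1, GJB2, GJC1 and PANX1 in each library, with the mean and SD of 3 libraries per group as a bar and whiskers. GJA1 lies near 0 in all 6 knockout libraries, GJB2 lies between 14.1 and 18.9 in KO2 and under 0.31 elsewhere, the groups of GJC1 overlap, and the PANX1 points of both clones lie below those of Vector.

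FPKM is scaled to the exon length of all annotated transcripts of a gene, 8660 bases for GJC1 and 2546 for GJB2. An order between genes holds only as far as these lengths fit the transcripts present, which was not tested. In KO2, 6653 reads fell on GJC1 and 2221 on GJB2. In KO2, GJB2 averaged 16.8 ± 2.43 FPKM and GJC1 14.9 ± 3.08 FPKM (SD, n = 3), which overlap, and PANX1 at 6.78 ± 0.906 FPKM and GJA1 at 0.0383 ± 0.0411 FPKM followed without overlap. KO1 had the order GJC1 at 14.3 ± 0.41 FPKM, PANX1 at 7.23 ± 0.305 FPKM, and then GJB2 at 0.0403 ± 0.0147 FPKM above GJA1 at 0.0118 ± 0.0102 FPKM, neither of which exceeded 2 reads in any library. Vector had GJC1 at 15.6 ± 1.03 FPKM, PANX1 at 8.82 ± 0.819 FPKM, GJA1 at 2.22 ± 0.0668 FPKM and GJB2 at 0.233 ± 0.0876 FPKM, with no overlap between neighbours in the order.

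The remaining channel genes of these families were low. PANX2, a pannexin of neural tissue, averaged 0.355 ± 0.0298 FPKM in KO1, 1.29 ± 0.309 FPKM in KO2 and 0.509 ± 0.196 FPKM in Vector. By library it had 1.57, 1.33 and 0.956 FPKM in KO2 and 0.411, 0.381 and 0.734 FPKM in Vector, which do not overlap. It rose in KO2 against Vector (log2 0.6, SE 0.14, limma adjusted p = 0.0135), and KO2 exceeded KO1 by 0.75 (limma adjusted p = 0.0042). Its mean over the 9 libraries was 0.716 FPKM, which passed the filter of 0.5 FPKM mostly through KO2. In a fit with no filter these calls were kept (limma adjusted p = 0.0286 against Vector and 0.0111 against KO1). The KO2 against Vector call was lost without Vector replicate 2 (adjusted p = 0.0502) and without KO2 replicate 1 (adjusted p = 0.0523). The KO2 against KO1 call was lost with the median of its neighbours subtracted, at 0.34 (adjusted p = 0.0579). PANX3, known from bone and cartilage, averaged 2.18 ± 0.302, 2.72 ± 0.544 and 2.19 ± 0.563 FPKM in KO1, KO2 and Vector and passed neither test against Vector (limma adjusted p = 0.988 for KO1, 0.34 for KO2). Of the 21 connexin genes, 18 had a mean under 0.5 FPKM and were not fitted, and 6 of these were at 0 reads in all 9 libraries.

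**Figure D3:**
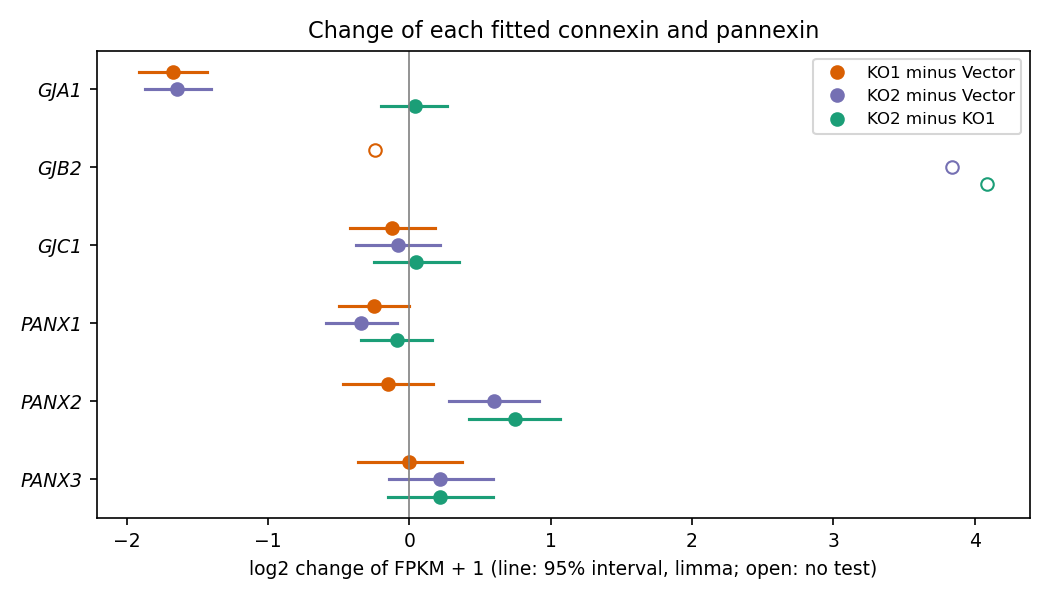
Points give the log2(FPKM + 1) difference of each fitted connexin and pannexin in the 3 comparisons, with 95% intervals from limma; the open GJB2 points have no interval because its levels chose the gene. GJA1 lies near -1.7 in both clones against Vector, and the intervals of GJC1 cross 0 in all 3 comparisons.

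GJB2 lies in a cluster of connexin genes on chromosome 13, with GJA3, a connexin of the eye lens, 26.4 kb away and GJB6 29 kb away. GJA3 had 0.0361, 0.0236 and 0.0341 FPKM in KO1, 0.641, 0.803 and 0.996 FPKM in KO2 and 0.21, 0.136 and 0.371 FPKM in Vector. Like GJB2, its groups did not overlap, with KO1 lowest and KO2 highest, at 8 reads in KO1, 218 in KO2 and 64 in Vector. With 27.9% to 34.1% of all fitted genes called per comparison, such separation is not read as particular to any gene named here. The share of all genes whose groups separate was not counted. GJA3 was under the filter. In a fit with no filter it passed the test in KO2 against Vector (log2 0.55, limma adjusted p = 0.00894) and in KO2 against KO1 (0.81, limma adjusted p = 0.00152), and missed it in KO1 (-0.26, limma adjusted p = 0.126). GJB6, a partner of GJB2 in the inner ear, had 0 reads in all 9 libraries.

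No other fitted gene near GJB2 came near its value in KO2. The 33 fitted genes that start within 5 Mb had a median log2 change of 0.4 in KO1, where 14 rose and 1 fell, and of -0.08 in KO2, where 2 rose and 2 fell. Their highest value in KO2 was 0.73. With the median of the neighbours subtracted, GJB2 read -0.62 for KO1 minus Vector and 3.91 for KO2 minus Vector, with no test. Since GJB2 lay near 0 in both KO1 and Vector, most of the KO1 value is the neighbours' own shift. GJA1 lay among 29 fitted genes with a median of -0.2 in KO1, where 1 rose and 10 fell, and of -0.64 in KO2, where 0 rose and 21 fell. GJA1 was lower than all 29 in either clone. With the median subtracted, GJA1 kept a value of -1.49 for KO1 minus Vector (limma adjusted p = 9.74e-05). For KO2 minus Vector it kept -1.03 (limma adjusted p = 0.0011). Since GJA1 lay near 0 in both clones, the scale caps its fall, so these values do not show how much of it the neighbours share. For PANX1 the neighbours' median was -0.1 in KO1 and -0.23 in KO2. Subtracting it left PANX1 at -0.16 in KO2, which no longer passed (limma adjusted p = 0.479).

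**Figure D4:**
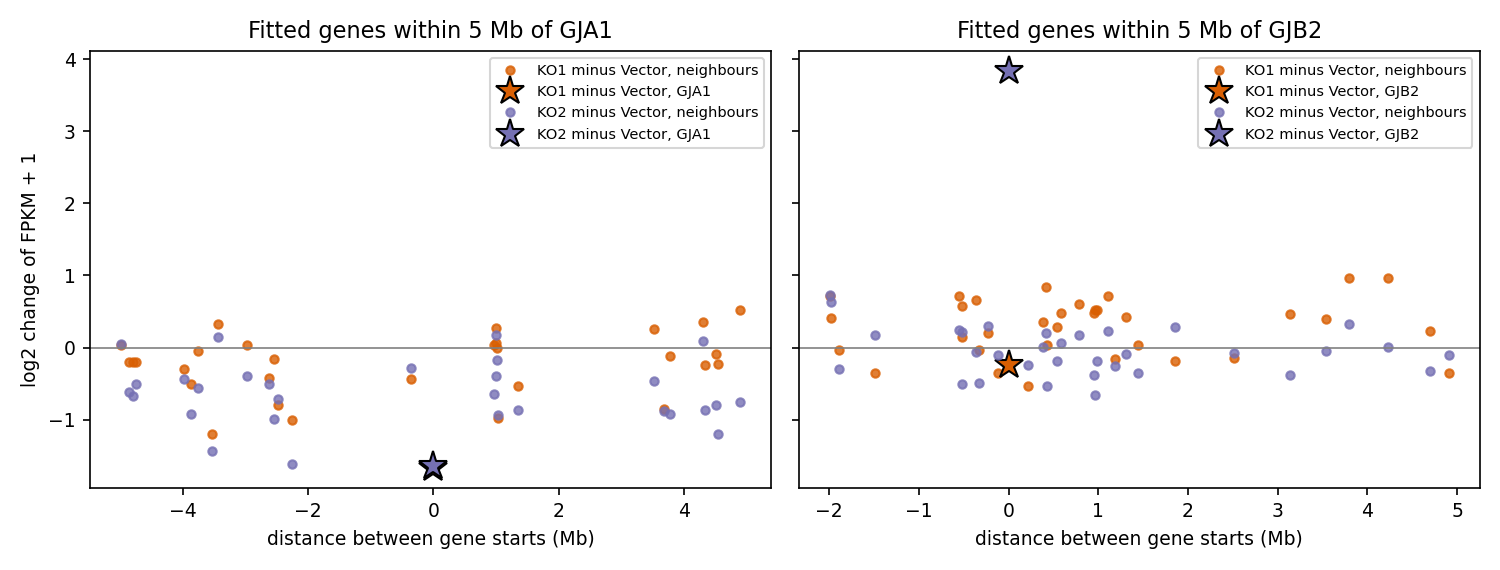
Each point is a fitted gene within 5 Mb of GJA1 (left) or GJB2 (right), placed by the distance between gene starts in Mb, with its log2(FPKM + 1) difference from Vector in KO1 or KO2; stars mark GJA1 and GJB2, and the KO1 and KO2 stars of GJA1 lie on top of each other. Neighbours of GJA1 in KO2 lie mostly below 0, down to -1.61, while neighbours of GJB2 lie between -0.66 and 0.96.

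Among all 11758 other fitted protein-coding genes, the pattern most like GJA1 over the 9 libraries was that of ST8SIA6, a sialyltransferase, with a root mean square difference of 0.083 on the log2(FPKM + 1) scale after each gene was centred on its own mean. This likeness is a description over 9 libraries of 3 groups and carries no test. ST8SIA6 had 0.0374 ± 0.0347 FPKM in KO1, 0.0069 ± 0.0119 FPKM in KO2 and 2.34 ± 0.257 FPKM in Vector (SD, n = 3). The next were TMEM216 of the cilium base (0.089), FBLN5 of elastic fibres (0.095), the respiratory chain subunit gene UQCRFS1 (0.109) and the transcription factor gene STAT6 (0.11). UQCRFS1 kept a high level while falling, at 24.4 ± 2.31, 22.9 ± 1.95 and 73.4 ± 4.9 FPKM in KO1, KO2 and Vector, whereas STAT6 was near 0 in the clones, at 0.114 ± 0.0345, 0.254 ± 0.00587 and 2.96 ± 0.565 FPKM.

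The genes ranked 2 to 5 in likeness to GJB2 are given here. CLU, a secreted chaperone, differed by 0.827, with 2.58 ± 0.127 FPKM in KO1, 15.0 ± 0.638 FPKM in KO2 and 1.94 ± 0.352 FPKM in Vector. ONECUT3, a homeobox factor (0.842), NR2F1, a nuclear receptor (0.843), and CLMN (0.844) followed. These 4 averaged higher in KO2 than in Vector, by 1.94 to 2.45 on the log2 scale, and each lay nearer to Vector than GJB2 did.

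**Figure D5:**
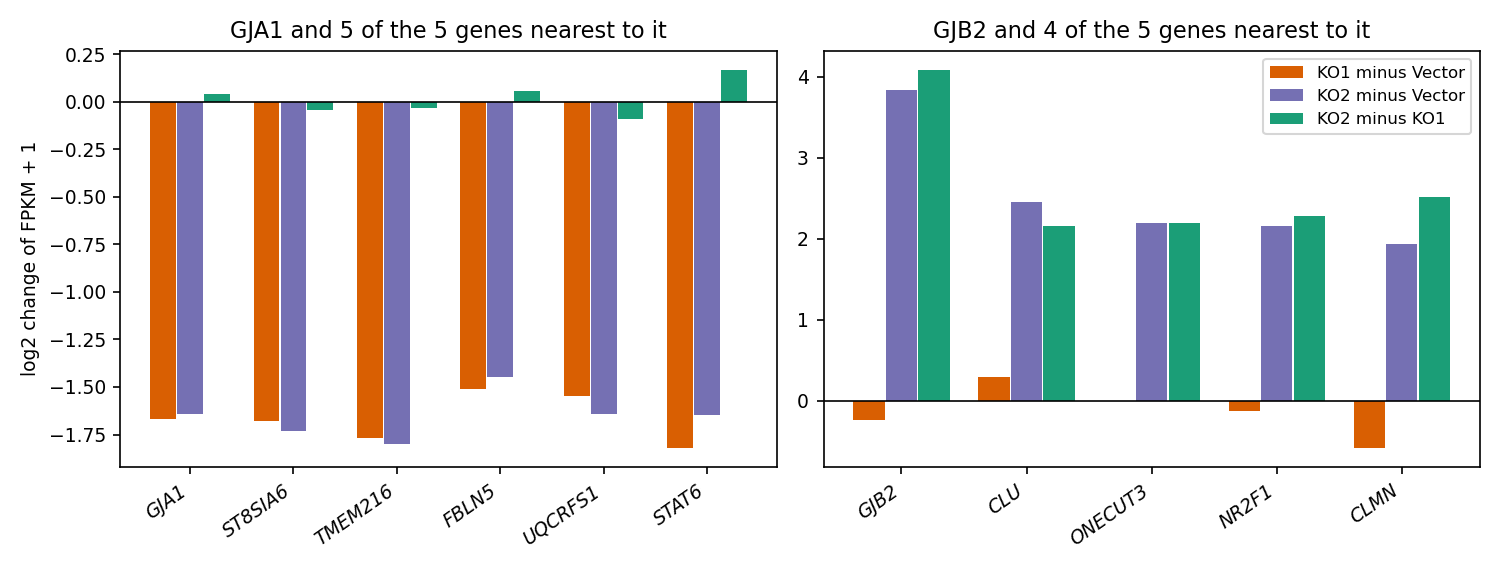
Bars give the log2(FPKM + 1) differences of GJA1 (left) and GJB2 (right) and of protein-coding genes among the 5 nearest to each over 9 libraries, 5 on the left and 4 on the right. All 6 genes on the left lie between -1.45 and -1.82 in both clones against Vector, and those on the right are high in KO2.

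Genes whose products bind, traffic or degrade connexins were called in both directions, as were genes at large. Of 13 fitted genes of 16 in this list, 4 rose and 2 fell in KO1 (median log2 change 0.21, against 0.008 over all fitted genes), and 3 rose and 3 fell in KO2 (median -0.05, against -0.005). Over all fitted genes 17.4% rose and 16.7% fell in KO1, and 12.9% rose and 15.0% fell in KO2, and no count of this or the next lists is read as particular to its list. Without Vector replicate 3 and KO2 replicate 3 the counts were 7 and 4 in KO1 and 5 and 6 in KO2. Calls over all genes rose in that fit too, to 9335 in KO1 and 8138 in KO2. The fit of all 9 libraries had 5609 and 4586. Higher counts without these libraries, in this and the next lists, are therefore not read as particular to a list either. All calls named in this paragraph and the next, except PRKCD in KO2, were kept when any single library was left out. SMURF2, a ubiquitin ligase that acts on GJA1 protein, had 55.4 ± 1.67 FPKM in KO1, 18.3 ± 1.08 FPKM in KO2 and 40.8 ± 5.26 FPKM in Vector (SD, n = 3), so that it fell in KO2 (log2 -1.11, limma adjusted p = 0.000145). CAV1, the caveolae protein that binds connexins, averaged 51.3 ± 1.51, 132 ± 3.58 and 69.1 ± 8.15 FPKM in KO1, KO2 and Vector and rose in KO2 (log2 0.93, limma adjusted p = 0.000325). HGS, which sorts internalised membrane proteins to the lysosome, rose in KO1 (log2 0.96, limma adjusted p = 0.00707) and had a value of -0.27 in KO2 that missed the threshold. TJP1, the scaffold under gap junctions, missed the threshold at -0.2 for KO1 (limma adjusted p = 0.169) and at -0.31 for KO2 (limma adjusted p = 0.0531).

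Kinases known to phosphorylate GJA1 protein were all fitted. Of 11 fitted genes, 2 rose and 3 fell in KO1 (median 0.1), and 0 rose and 5 fell in KO2 (median -0.33). Between the clones 1 was higher and 3 were lower in KO2, where 30.9% of all fitted genes were called. Without the libraries that stood apart 5 rose and 3 fell in KO1, and 3 rose and 4 fell in KO2. The protein kinase C gene PRKCE rose in KO1 to 12.2 ± 0.446 FPKM, against 2.9 ± 0.161 FPKM in Vector (log2 1.76, limma adjusted p = 3.33e-06), and KO2 was lower than KO1 by 2.07 on that scale (limma adjusted p = 1.94e-06). PRKCD fell in KO1 to 0.877 ± 0.179 FPKM, against 4.11 ± 0.857 FPKM in Vector (log2 -1.43, limma adjusted p = 0.000234). It also fell in KO2, to 2.38 ± 0.577 FPKM (log2 -0.6, limma adjusted p = 0.0263), a call lost without Vector replicate 1 (adjusted p = 0.0825), Vector replicate 3 (0.0575), KO2 replicate 2 (0.0618) or KO2 replicate 3 (0.0696). PRKCA fell in KO2 to 3.53 ± 0.191 FPKM, against 8.11 ± 0.568 FPKM in Vector (log2 -1.01, limma adjusted p = 6.95e-05), and in KO1 to 5.48 ± 0.246 FPKM (log2 -0.49, limma adjusted p = 0.00318). CDK1, the mitotic kinase, was lower in KO2 than in KO1 by 1.13 on the log2 scale (limma adjusted p = 0.00109).

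In the list of ATP release and purinergic signalling, which holds the enzymes and receptors downstream of PANX1, 10 of 17 genes were fitted. In KO1 2 rose and 4 fell (median -0.16) and in KO2 1 rose and 2 fell (median -0.11), where 34.1% of all fitted genes were called in KO1 and 27.9% in KO2. The counts were 4 and 4 in KO1 and 3 and 4 in KO2 without the libraries that stood apart. P2RX7, the ATP receptor often paired with PANX1, had a mean of 0, 0 and 0.0107 FPKM in KO1, KO2 and Vector. Of 11 genes of other large-pore channels, the CALHM and LRRC8 families, 5 were fitted, with 2 rising and 0 falling in KO1 (median 0.3) and 1 and 0 in KO2 (median 0.28). Without the libraries that stood apart, 3 rose in KO1 and 2 in KO2, and none fell by the same limma test.

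Factors known to act at connexin promoters showed small values in the fit of all 9 libraries. Of 7, 5 were fitted, with 0 rising and 1 falling in KO1 (median -0.04) and 0 rising and 1 falling in KO2 (median 0.19). Without the libraries that stood apart the counts were 0 and 1 in KO1 and 3 and 0 in KO2. SP1 had 23.9 ± 1.12, 26.6 ± 4.42 and 24.6 ± 0.757 FPKM in KO1, KO2 and Vector, and JUN, an AP-1 subunit, 55.4 ± 4.88, 80.5 ± 34.4 and 58.3 ± 17.7 FPKM, and neither passed the test in either clone (limma adjusted p = 0.815 and 0.592 for SP1, and 0.947 and 0.424 for JUN). By library, JUN had 103, 98.2 and 40.9 FPKM in KO2 and 49.3, 46.8 and 78.7 FPKM in Vector. KO2 replicates 1 and 2 lay above all Vector libraries, and only KO2 replicate 3, a library that stood apart, lay below them. Vector replicate 3, which also stood apart, was the highest of its group. The missed threshold therefore does not show that JUN was unchanged in KO2. In the fit of all 9 libraries, no fitted gene of these last 3 lists reached an absolute log2 change of 1 against Vector with a call.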

How the data were processed

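The authors deposited 1 table of FPKM for 9 libraries, scaled by them to exon length and a scaling size for each library. In KO2 replicate 2 that size was 17921618, against 16654780 recovered reads. In KO1 replicate 1 it was 15958418, against 16838601 recovered reads. The scaling size is therefore not the plain read total, which the alternative of scaling by library size used in its place. CASAVA 1.6, HISAT2 2.0.5 and featureCounts 1.5.0-p3 and build hg38 are named in the submitters' processing notes; the sources used here give no options, no strand setting and no rule for reads that map more than once. Positions and merged exon lengths are from GENCODE 29, in which all 58735 gene identifiers were found. FPKM times exon length fell on whole reads, within 0.02 reads, for 100.0% of values up to 1000 reads, which gave the read counts quoted. FPKM + 1 was taken to log2 and 16426 genes were fitted with limma 3.58.1 in R 4.3.3 (trended empirical Bayes, group as the only term). The procedure was tested on simulated data.

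The members and lists were chosen with earlier results of these data known. Named genes were the 4 members, fitted connexins and pannexins, the connexins beside GJB2, the 5 nearest genes by root mean square difference for members whose group means span at least 1, and in each list up to 3 called genes per comparison with an absolute log2 change of at least 1. Genes named besides these (TJP1, P2RX7, SP1, JUN and those under other observations) were chosen after their values were seen. BCKDK and the cell markers check the labels. Alternatives covered pseudocount, filter, scaling, groups fitted, replicate block, library weights, libraries left out, neighbour subtraction, limma-voom and threshold. No protein sequence was used here, and a few genes that the rule or the marker lists hold are not reported here.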

Additional observations from a re-analysis of the deposited data

Results flagged for a closer look

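GJB2 differed from Vector in opposite directions in the clones, with every KO2 library above and every KO1 library below all Vector libraries. Its log2 value was 3.84 in KO2 and -0.24 in KO1, and this difference was not tested, since its levels chose the gene. For the other genes the response of the clones was compared through KO2 minus KO1 in the limma fit, at an adjusted p under 0.05 over all genes. KO2 was higher for PANX2 (0.75, and 0.34 with its neighbours subtracted, which missed the threshold), CAV1 (1.35) and PRKCD (0.84). KO2 was lower for PRKCE (-2.07), SMURF2 (-1.55), HGS (-1.23), CDK1 (-1.13) and PRKCA (-0.52). Since 30.9% of all fitted genes passed this test, such differences are common in these lines. Against Vector, SMURF2 (0.44 in KO1 and -1.11 in KO2), CAV1 (-0.42 and 0.93) and PRKCE (1.76 and -0.3) were also called in opposite directions. The weakest of these calls was PRKCE in KO2 (limma adjusted p = 0.0496).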

How the results depend on the processing

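GJA1 was called in both clones against Vector under every alternative in which it was fitted, with log2 values of -1.68 to -1.65 in KO1 and -1.67 to -1.61 in KO2 when 1 library was left out. A minimum mean of 1 FPKM removed it. Where another setting ended or made a call, the cause was not tested.

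For PANX1 in KO2 the call was lost with a pseudocount of 0.1 (-0.38), no filter (-0.34), quantile normalization (-0.34), the 2 groups alone (-0.34), neighbours subtracted (-0.16), limma-voom (-0.39) and a threshold of 0.01; leaving out 1 library gave -0.43 to -0.27. In KO1 PANX1 passed with scaling by library size (-0.34), library weights (-0.21) and both libraries that stood apart left out (-0.19), and ranged from -0.3 to -0.19 with 1 library left out. KO2 minus KO1 for PANX1 was 0.01 with library size scaling, passed at -0.18 with weights and at -0.18 without both libraries, and ranged from -0.18 to -0.04.

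GJB2 carries no test. Its KO1 minus Vector value was -1.21 with a pseudocount of 0.1, -0.31 with weights, -0.3 with both libraries left out, -0.62 with neighbours subtracted and -2.19 with limma-voom, and ranged from -0.3 to -0.2. GJB2 KO2 minus Vector was 5.69 with a pseudocount of 0.1 and 6.17 with limma-voom, ranging from 3.76 to 3.96; KO2 minus KO1 was 6.91, 8.37 and 4.53 with neighbours subtracted, ranging from 4.0 to 4.2.

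GJC1 passed in KO1 with weights (-0.19) and both libraries left out (-0.17; range -0.17 to -0.09), and in KO2 with weights (-0.28) and both left out (-0.28; range -0.23 to 0.0). Its KO2 minus KO1 turned to -0.09 with weights and -0.11 with both left out (range -0.11 to 0.13). GJA1 KO2 minus KO1 was -0.05 with quantile normalization and passed at 0.46 with neighbours subtracted, which is the neighbours' own difference since GJA1 lay near 0 in both clones (range 0.01 to 0.06).

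Signs also turned for genes that had missed the threshold. PANX3 in KO1 was -0.06 with library size scaling, -0.09 with weights, -0.15 without Vector replicate 1 and -0.07 without KO1 replicate 2 (range -0.15 to 0.11), and in KO2 -0.07 with weights. HGS in KO2 was 0.06 with weights, 0.0 without Vector replicate 3 (range -0.41 to 0.0) and 0.1 with both left out. CDK1 in KO1 was -0.04 without Vector replicate 3 and with both left out (range -0.04 to 0.3), and PANX2 in KO1 was 0.04 with neighbours subtracted.

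Over all genes, 5609, 4586 and 5079 were called for KO1 and KO2 against Vector and between the clones, in that order. Weights gave 10779, 10061 and 9764, both libraries left out 9335, 8138 and 7834, a threshold of 0.01 3079, 2362 and 2797, and the 2 groups alone 2963 in KO2 against Vector. Leaving out 1 library gave 3705 to 7367, 3203 to 6531 and 3337 to 6756.

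The replicate numbers have no stated meaning. Same-numbered libraries had correlations of their deviations between -0.202 and 0.142, and differently numbered ones between -0.261 and 0.251. Deviations from a mean of 3 libraries depend on each other, so these values do not decide whether the samples were paired. With a replicate block 4911, 3953 and 4428 genes were called, and no member changed its call. The quasi-likelihood count test listed as an alternative was not run. Depth limits GJA1 and GJB2 in KO1, at 0 to 2 reads per library.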

Other observations

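NOV, also called CCN3, encodes a secreted protein known to bind GJA1 protein. It averaged 0.0156 ± 0.0271 FPKM in KO1, 0 FPKM in KO2 and 1.44 ± 0.107 FPKM in Vector (SD, n = 3). It was under the filter, and in the fit with no filter it fell in both clones (log2 -1.26 and -1.29, limma adjusted p = 2.25e-05 and 3e-05). The channel genes CALHM4 and CALHM5, which lie 4880 and 4910 kb from GJA1 on chromosome 6, had 0.0318 and 0.00605 FPKM in KO1, 0 and 0.00421 FPKM in KO2 and 1.02 and 0.324 FPKM in Vector. In the same fit CALHM4 fell by 0.96 in KO1 and by 1.01 in KO2 (limma adjusted p = 0.000514 and 0.000562). Closer to GJA1, MAN1A1, a mannosidase of glycoprotein processing, averaged 4.07, 2.34 and 9.18 FPKM in KO1, KO2 and Vector, and SLC35F1 averaged 0.335, 0.135 and 2.08 FPKM.

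Among connexins under the filter, GJD3 averaged 0.0223 ± 0.0386, 0.218 ± 0.0972 and 0.602 ± 0.45 FPKM in KO1, KO2 and Vector, shares 82.8% of its exon length with an antisense gene, and passed in neither clone (limma adjusted p = 0.0662 and 0.286).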
